A study of Homo sapiens with 48 samples.

Results

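OLIG1 and OLIG2 were followed here through every group of the series. All probes that the panel assigns to either gene symbol were taken, which gave 2 of 452 genes and 6 of 1113 probes, with 3 probes for each gene. Both genes were chosen by values of these same libraries. Which contrasts chose them is not recorded, and they were taken to be the fold change of OLIG2 between CEPT and Y-27632 embryoid bodies and the loss of OLIG1 in endoderm against undifferentiated stem cells. Values of both genes in those 2 comparisons are therefore given as a description, without a test.

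OLIG1 and OLIG2 encode basic helix-loop-helix transcription factors of the neural tube. Sonic hedgehog from the floor plate induces OLIG2 in the ventral progenitor domain that gives rise first to motor neurons and later to oligodendrocyte precursors, where OLIG2 acts together with neurogenic factors such as NEUROG2 and is bounded ventrally by NKX2-2. OLIG1 is known mainly for the maturation of oligodendrocytes and for remyelination. Both genes serve as markers of the oligodendrocyte lineage in brain tissue.

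RNA was measured by RASL-Seq, in which 2 adjoining DNA probes on a messenger RNA caught by its poly(A) tail are joined by a ligase and the joined product is read by sequencing. All cells came from 1 established human embryonic stem cell line, WA09 (also called H9). Embryoid bodies (EB), floating aggregates of differentiating stem cells, were seeded at 20000 cells per well and kept in E6 medium for 7 days. For their first 24 hours they were exposed to Y-27632, a ROCK inhibitor that keeps dissociated stem cells alive (Y27 EB, 16 libraries), or to CEPT, a cytoprotective cocktail of small molecules (CEPT EB, 16 libraries). The other groups had 4 libraries each: untreated stem cells (hESC), ectoderm cultures (6 days in E6 medium with 100 nM LDN-193189 plus 2 µM A83-01), and mesoderm and endoderm cultures made with commercial induction kits in 5 days. LDN-193189 and A83-01 block BMP and TGF-beta receptors and are used together to turn stem cells into neural ectoderm. Culture times therefore differ between EB and the other groups. The labels do not say whether libraries came from separate cultures or whether a library is 1 EB, so p-values measure the spread between these libraries, which may be technical.

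Library totals ranged from 379810 to 5577868 reads. Y27 EB replicate 15 had the lowest total and stood apart in another way. Its summed level of the 4 mesoderm markers on the panel was 3821 counts per 1000000 reads (CPM), of which HAND1, a factor of lateral mesoderm, made up 3789, while the next Y27 EB library was at 188.9 CPM. The mesoderm cultures were at 3553 to 4217 CPM for the same markers. Of the labelled cell types, the endoderm cultures carried their own 5 markers at 9890 CPM or more, and the ectoderm cultures had PAX6, a neural ectoderm factor, at 940.1 CPM ± 86.3 (SD, n = 4). The summed neural ectoderm markers did not set ectoderm apart, with 10347 to 11108 CPM there and 10774 to 11187 CPM in endoderm. POU5F1 had a mean of 9.69 CPM in hESC and at most 1 read in any ectoderm, mesoderm or endoderm library, while NANOG was at 2233 CPM ± 197 in hESC (SD, n = 4). In lysates of many cells, fewer cells that express a gene and less RNA per cell cannot be told apart.

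The OLIG1 probes 531, 532 and 533 are placed by the panel at positions 1666, 1865 and 2203 of transcript NM_138983. The OLIG2 probes 534, 535 and 536 lie at positions 1802, 2328 and 2140 of NM_005806. Along the GENCODE transcripts paired with these 2 accessions, 2277 and 2578 bases long, all 6 positions fall after the stop codon, in the 3′ UTR, by 586 to 1284 bases. The version of each accession behind the probe names is not given in the sources used here. OLIG2 lies on the plus strand of chromosome 21 at 33025935 to 33029185 and OLIG1 at 33070141 to 33072413 (RefSeq, GRCh38.p14), with 41 kb between them. The panel's other genes on that chromosome, PWP2, C21orf33 and S100B, start at least 11034986 bases away.

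OLIG1 was present in both EB arms and in stem cells and nearly missing from the 3 directed cultures. Levels are given as CPM scaled by TMM factors over all 48 libraries, with the 3 probes of a gene summed. Y27 EB ran from 128.9 to 340.9 CPM with a median of 198.3 (mean 199.6 ± 65.8, SD, n = 16), and CEPT EB from 99.7 to 307.5 with a median of 164.7 (mean 170.3 ± 53.2, SD, n = 16). These 2 ranges overlapped over most of their width. The 4 hESC libraries were at 55.6, 87.3, 85.3 and 69.3 CPM (mean 74.3 ± 14.9, SD), all below the lowest EB library.

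Reads of OLIG1 were at the edge of detection in the directed cultures. The 4 ectoderm libraries together held 7 OLIG1 reads, of which 5 were in 1 library, and the mesoderm libraries held 2, both in replicate 2. No OLIG1 read was found in endoderm, where a count of 0 allows up to 0.320 CPM over the 4 libraries (3 reads, counting error only). The corresponding means were 0.584 ± 0.704 CPM in ectoderm and 0.170 ± 0.340 in mesoderm (SD, n = 4 each). Because PCR copies were read with no molecular tags, every such limit or counting interval covers counting error only.

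OLIG2 was detected in all 48 libraries and in a different order of groups. It was highest in Y27 EB, at 116.8 to 254.8 CPM with a median of 162.0 (mean 172 ± 42.7, SD, n = 16). CEPT EB followed at 63.2 to 141.9 CPM with a median of 92.6 (mean 94.3 ± 23.6, SD, n = 16). The upper part of the CEPT EB range and the lower part of the Y27 EB range overlapped.

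Mesoderm libraries came next for OLIG2, at 36.2, 45.9, 38.5 and 34.2 CPM (mean 38.7 ± 5.10, SD). The hESC libraries were at 29.1, 35.1, 28.0 and 27.03 CPM (mean 29.8 ± 3.62, SD). Ectoderm libraries were at 12.8, 16.1, 18.6 and 15.1 CPM (mean 15.6 ± 2.42, SD). Only mesoderm and hESC overlapped among these neighbours, by 1 library each. Endoderm was lowest, at 9.84, 6.85, 6.09 and 5.44 CPM (mean 7.06 ± 1.95, SD), so that OLIG2, unlike OLIG1, kept 66 reads there. OLIG1 in mesoderm was near 0 where OLIG2 stood above its ectoderm level.

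**Figure D1:**
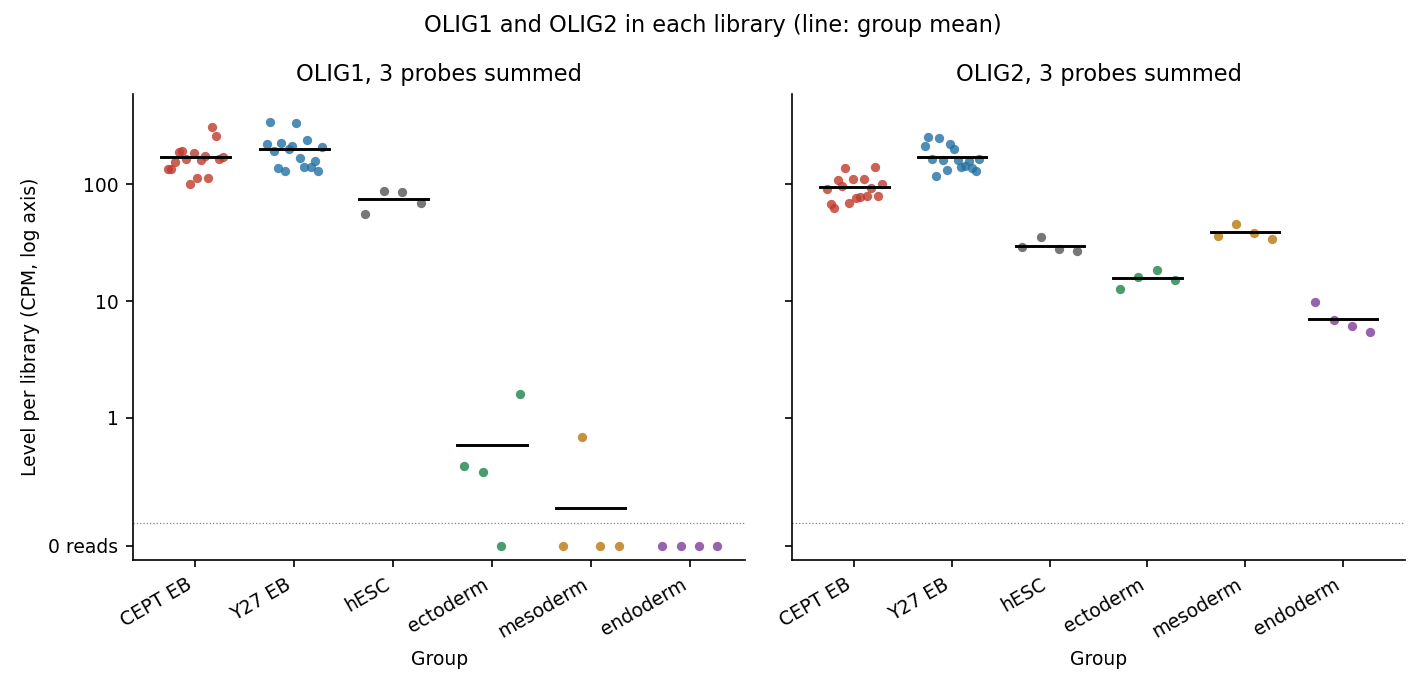
Summed CPM of OLIG1 (left) and OLIG2 (right) in each of the 48 libraries on a log axis, by group, with the group mean as a line; libraries with 0 reads are drawn at a labelled position below the dotted line. OLIG1 drops from 55.6 CPM or more in every EB and hESC library to at most 1.61 CPM in the directed cultures, while OLIG2 stays above 5 CPM in all groups.

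The first comparison asks how far OLIG transcripts differed between EB and the stem cells from which they were grown. Both genes were higher in EB of either arm. With the 3 probes summed before the test, OLIG2 was 7.06-fold higher in Y27 EB than in hESC (log2 fold change 2.82 ± 0.23, SE) and 4.04-fold higher in CEPT EB (2.02 ± 0.23). OLIG1 was 3.28-fold higher in Y27 EB (1.71 ± 0.27) and 2.93-fold higher in CEPT EB (1.55 ± 0.26). These 4 values had adjusted p-values from 2.71e-10 to 9.40e-06 (edgeR quasi-likelihood, Benjamini-Hochberg over all genes tested). The 2 comparisons share the same 4 hESC libraries. The EB and hESC libraries also entered the comparisons taken to have chosen the genes, so these tests are not independent of that choice.

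Probe by probe, all 6 OLIG probes were called higher in Y27 EB than in hESC at an adjusted p under 0.05. Of the 963 probes tested in that comparison 41.5% were called higher and 74.1% either way, so calls as such were common. The OLIG2 probes gave folds of 8.22, 6.81 and 5.96 and the OLIG1 probes 531, 532 and 533 gave 3.60, 2.32 and 3.35. In CEPT EB against hESC 5 of the 6 were called higher, against 42.2% of 940 probes (73.4% either way). OLIG1 probe 532 missed the threshold there, with a log2 fold change of 0.77 ± 0.37 (adjusted p 0.0659, edgeR). It ran from 10.1 to 47.3 CPM in CEPT EB with a median of 22.9, around the hESC range of 12.4 to 20.8, and passed without CEPT EB replicate 1 (adjusted p 0.0373) or 16 (0.0385).

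The groups did not overlap for 4 OLIG probes in Y27 EB against hESC (533, 534, 535 and 536), as for 56.2% of all probes tested. In CEPT EB against hESC 3 OLIG probes did not overlap (533, 534 and 535), against 57.3% of all probes. The OLIG2 probes had log2 fold changes of 3.04 ± 0.31, 2.77 ± 0.25 and 2.58 ± 0.32 in Y27 EB and 2.13 ± 0.43, 1.98 ± 0.27 and 1.72 ± 0.34 in CEPT EB (SE, in the order 534, 535, 536). The median over all probes tested was 0.39 in the first comparison and 0.47 in the second, against 2.21 and 1.66 for the 6 OLIG probes. Without Y27 EB replicate 15, the library with high HAND1, the same 6 probes were called in Y27 EB against hESC.

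**Figure D2:**
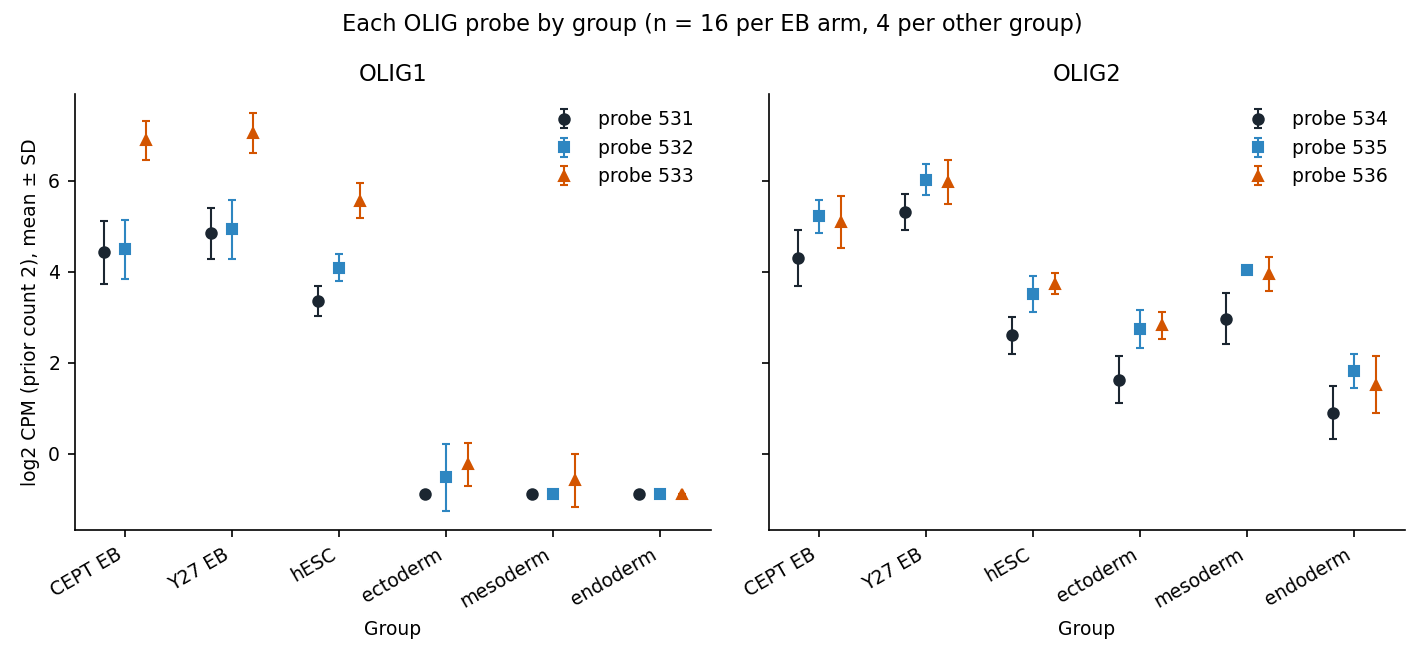
Group means ± SD of log2 CPM (prior count 2) for the 3 probes of OLIG1 (left) and the 3 of OLIG2 (right). Probe 533 lies above its 2 neighbours wherever OLIG1 is detected, the OLIG2 probes keep the same order of groups, and values near -0.88 stand for 0 reads.

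The directed cultures were compared with hESC to see where each gene went on differentiation. In ectoderm, the neural induction, both genes were lower than in hESC. All 6 OLIG probes were called lower in ectoderm, against 38.5% of the 903 probes tested (81.7% either way). The count was 4 of 6 with no count filter or with DESeq2, where OLIG2 probes 534 and 535 missed the threshold. The 2 genes differed widely in size of change. Summed OLIG1 reads were 114.8 times as frequent in hESC as in ectoderm (exact 95% counting interval 55.4 to 286.9), whereas OLIG2 was 1.68-fold lower with its probes summed (log2 fold change -0.75 ± 0.18, adjusted p 0.000564, edgeR).

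Single OLIG2 probes were near the threshold in that comparison. Probes 534, 535 and 536 had log2 fold changes of -1.04 ± 0.42, -0.77 ± 0.27 and -0.88 ± 0.30, with adjusted p-values of 0.0286, 0.0126 and 0.0108 (edgeR). Probe 535 was at 4.25 to 8.04 CPM in ectoderm and 7.81 to 15.5 in hESC, so its groups touched, while the other 5 OLIG probes did not overlap (78.2% of all probes did not). The call of probe 534 or 535 was lost without hESC replicate 2 or 4 or ectoderm replicate 1, 2 or 4 (adjusted p 0.0775 to 0.111), and that of 536 without ectoderm replicate 1 (0.0728).

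In mesoderm the 2 genes parted. All 3 OLIG1 probes were called lower than in hESC and none of the 3 OLIG2 probes was called in either direction, where 77.5% of all probes were called (43.5% lower). The OLIG1 groups did not overlap for any probe (70.8% of all probes did not) and the OLIG2 groups overlapped for all 3. OLIG1 reads were 403 times as frequent in hESC as in mesoderm by summed counts (exact 95% counting interval 111 to 3336). The OLIG2 probes had log2 fold changes of 0.15 ± 0.36, 0.23 ± 0.24 and 0.02 ± 0.27 (adjusted p 0.720, 0.397 and 0.960, edgeR). With the probes summed, OLIG2 was at 0.34 ± 0.16 on the log2 scale in mesoderm against hESC (adjusted p 0.0614). These values leave room for a modest difference and do not show that the levels were equal.

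Ectoderm against mesoderm was the only comparison with both groups outside the 2 comparisons taken to have chosen the genes. It was not independent of them, because the filter, the scaling and the estimated spread of its fit also used the hESC and endoderm libraries. OLIG2 was lower in ectoderm, 2.12-fold with its probes summed (log2 fold change -1.08 ± 0.17, adjusted p 4.50e-06, edgeR). Its probes lay between -1.19 ± 0.39 (534) and -0.89 ± 0.28 (536), with adjusted p-values of 0.00915, 0.00133 and 0.00717 in the order 534, 535, 536. All 3 OLIG2 probes were called, with 38.2% of all probes called lower and 80.2% either way. None of the OLIG1 probes was called, but each held only 0 to 4 reads a group. No ectoderm library reached the lowest mesoderm library for any OLIG2 probe (75.5% of all probes did not overlap). OLIG1 had 7 reads against 2, a ratio of 3.51 with an exact 95% counting interval from 0.668 to 34.6.

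Endoderm held less OLIG2 than either of the other 2 directed cultures. Against endoderm, mesoderm was higher for all 3 OLIG2 probes, by log2 fold changes of 2.22 ± 0.44, 2.17 ± 0.29 and 2.38 ± 0.33 (adjusted p 0.000166 or less, edgeR), with 37.2% of all probes called higher (76.2% either way) and no overlap for any of the 3 (70.7% of all probes). Ectoderm was higher for 2 of the 3, with 1.16 ± 0.31 for probe 535 and 1.49 ± 0.36 for probe 536 (adjusted p 0.00229 and 0.000958), where 39.9% of all probes were called higher (79.7% either way). Probe 534 was at 1.03 ± 0.51 in that comparison (adjusted p 0.0730), and only probe 536 had groups that did not overlap (76.5% of all probes). No single OLIG1 probe was called between any 2 of these 3 cultures. Each held only 0 to 4 reads a group there, so the missing calls say little. With the probes summed, OLIG1 was called higher in ectoderm than in endoderm (3.87 ± 1.53, adjusted p 0.0257, edgeR), on 7 reads against 0. Of the 7 reads 5 were in ectoderm replicate 4. The loss of OLIG1 in these endoderm libraries was taken to have chosen the gene, so nothing is read from this call.

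In endoderm against hESC, one of the comparisons taken to have chosen the genes, OLIG1 was at least 233-fold lower, computed against 3 reads over the 4 endoderm libraries. The per-probe limits were at least 30.7-fold, 51.9-fold and 150-fold for probes 531, 532 and 533, in the order of their hESC levels (9.83, 16.7 and 47.8 CPM). OLIG2 was 4.19-fold, 3.83-fold and 5.16-fold lower by probes 534, 535 and 536. All 6 probes had groups that did not overlap, as had 73.9% of all probes, and 39.8% of all probes were called lower. Nothing is read from these counts.

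EB were next set against the directed cultures, with culture times of 7 days against 6 and 5. OLIG2 was higher in EB than in ectoderm, 6.20-fold in CEPT EB and 11.1-fold in Y27 EB with the probes summed (log2 fold changes 2.63 ± 0.25 and 3.48 ± 0.24). Against mesoderm it was 2.39-fold higher in CEPT EB and 4.62-fold higher in Y27 EB (1.26 ± 0.22 and 2.21 ± 0.22). The adjusted p-values of these 4 values were 1.66e-05 or less (edgeR).

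OLIG1 reads in EB exceeded those of ectoderm by 256 times in CEPT EB (exact 95% counting interval 124 to 637) and 320.5 times in Y27 EB (155.5 to 797). Against mesoderm the ratios were 899 (249 to 7421) and 1125 (311 to 9287). All 6 OLIG probes were called higher in each of these 4 comparisons. Calls higher made up 38.4% of all probes in CEPT EB against ectoderm, 32.6% in Y27 EB against ectoderm, 40.6% in CEPT EB against mesoderm and 35.3% in Y27 EB against mesoderm; calls either way made up 72.8%, 72.6%, 73.1% and 70.7%. The groups overlapped for a single member, OLIG2 probe 536 in CEPT EB against mesoderm (14.2 to 55.4 CPM against 11.4 to 21.1). Among all probes 52.6%, 51.6%, 51.4% and 50.7% did not overlap in these 4 comparisons. For each arm the 2 comparisons share its 16 EB libraries.

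**Figure D3:**
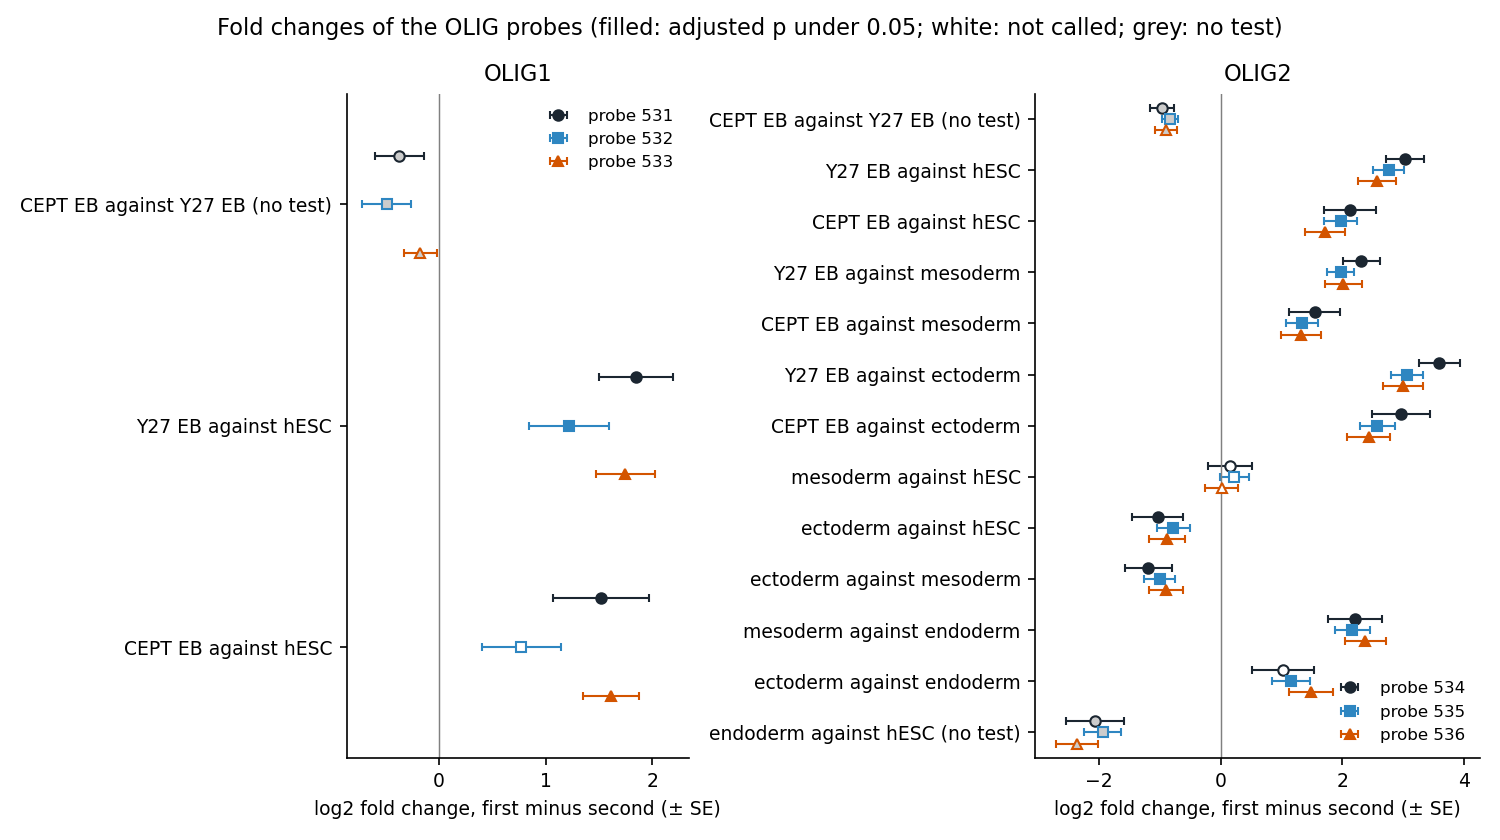
Log2 fold changes ± SE of the OLIG1 probes in the 3 comparisons without a near-empty group (left) and of the OLIG2 probes in all 13 comparisons (right). Filled symbols passed an adjusted p of 0.05, white ones did not, and grey ones belong to the 2 comparisons given without a test; the OLIG2 probes of mesoderm against hESC lie close to 0 while those of both EB arms lie to the right of it.

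The arms of the EB experiment differ in the compound of the first day, and OLIG2 was taken to have been chosen there. OLIG2 was 1.85-fold lower in CEPT EB than in Y27 EB with its probes summed (log2 fold change -0.89 ± 0.14, SE, no test). Its 3 probes were close to each other, at -0.96 ± 0.19, -0.83 ± 0.14 and -0.90 ± 0.19 for 534, 535 and 536. OLIG1 was 1.19-fold lower (-0.25 ± 0.16), with -0.37 ± 0.23, -0.49 ± 0.23 and -0.18 ± 0.15 for probes 531, 532 and 533. Of all 867 probes 23.6% were called and 13% were called lower in CEPT EB, and the median log2 fold change was -0.04.

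OLIG2 probe 535 ran from 25.0 to 52.6 CPM in CEPT EB with a median of 35.9, and from 43.0 to 91.0 in Y27 EB with a median of 63.1. Probe 536 ran from 14.2 to 55.4 CPM with a median of 35.9 in CEPT EB and from 36.8 to 113.1 with a median of 63.6 in Y27 EB. Probe 534 ran from 10.1 to 41.4 CPM with a median of 17.2, and from 27.9 to 66.9 with a median of 37.2. The arms thus overlapped for every OLIG2 probe, but the CEPT EB libraries sat in the lower part of the joint range. For probes 535 and 536 the whole CEPT arm, 16 of 16, was under the median of the Y27 arm, and for probe 534 it was 14 of 16; 4.5% of all probes had 16 of 16.

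OLIG1 probe 533 ran from 59.6 to 186.3 CPM in CEPT EB with a median of 118.8 and from 82.7 to 241.3 in Y27 EB with a median of 133.8. Probes 531 and 532, at medians of 19.9 and 22.9 CPM in CEPT EB and 29.5 and 30.5 in Y27 EB, were also spread over shared ranges. Libraries of the CEPT arm under the median of the Y27 arm numbered 14, 12 and 10 of 16 for probes 531, 532 and 533. No OLIG probe had arms that did not overlap, as was true of all but 0.115% of the panel. Whether the change of OLIG2 differed from that of OLIG1 was not tested, since the same comparison was taken to have singled out OLIG2.

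Scaling affects this description. With library totals alone, which moved the median of all probes by -0.31, the OLIG2 probes were at -1.28, -1.14 and -1.22 and the OLIG1 probes at -0.66, -0.80 and -0.47. With median-ratio factors they were at -0.88, -0.75 and -0.81 for OLIG2 and -0.28, -0.40 and -0.10 for OLIG1, so all 6 stayed negative under these scalings. The share of higher calls among all called probes was 44.9% with TMM factors, 14.2% with library totals and 58.8% with median-ratio factors. Without Y27 EB replicate 15 the OLIG2 values were -0.96, -0.86 and -0.93. That library itself held 60 reads each of OLIG1 and OLIG2, at 128.9 CPM, the lowest OLIG1 value of its arm and the second lowest OLIG2 value.

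The probes of OLIG1 were unequal in yield. Probe 533 held 72.3% ± 6.80 of OLIG1 reads in the CEPT arm (SD, n = 16), 68.7% ± 5.14 in the Y27 arm (n = 16) and 63.9% ± 6.10 in hESC (SD, n = 4). Along the paired transcript it is the probe nearest to the 3′ end, 74 bases before it, while 531 and 532 lie 611 and 412 bases before it. The OLIG2 probes shared their reads more evenly, with probe 535 at 40.5% ± 7.52 in the CEPT arm (SD, n = 16) and 38.7% ± 5.36 in the Y27 arm, probe 536 at 37.5% ± 8.20 and 37.5% ± 5.28, and probe 534 lowest. Across libraries of an arm, probes of OLIG1 correlated at a median r of 0.46 in CEPT EB and 0.62 in Y27 EB, and probes of OLIG2 at 0.24 and 0.47 (log2 CPM, 3 pairs each), a description that includes the counting noise of each probe.

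Since OLIG1 and OLIG2 are neighbours and are often expressed together, their levels were compared across EB libraries within each arm, which does not use the difference between the arms. In CEPT EB Pearson's r of the summed log2 CPM was 0.60 (permutation p 0.0135, adjusted over the 2 arms 0.0135) and Spearman's rho 0.73 (permutation p 0.00168, adjusted 0.00251; n = 16). In Y27 EB r was 0.69 (permutation p 0.00306, adjusted 0.00612) and rho 0.72 (permutation p 0.00251, adjusted 0.00251; n = 16). Without the 2 libraries farthest from the OLIG1 median, r was 0.69 in CEPT EB (without replicates 7 and 13) and 0.58 in Y27 EB (without replicates 2 and 9). Libraries with more OLIG1 thus tended to hold more OLIG2 in both arms.

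The relation was weaker by single probes. With only probe 533 for OLIG1 and 535 for OLIG2, r was 0.49 in CEPT EB (permutation p 0.0553) and 0.49 in Y27 EB (permutation p 0.0536). The summed value also missed the threshold without CEPT EB replicate 14 (r 0.50, permutation p 0.0525). Without Y27 EB replicate 15 it was 0.66 in that arm (permutation p 0.00730). Among 426 genes ranked by r with OLIG2, OLIG1 was the third in CEPT EB and the first in Y27 EB; ranked by r with OLIG1, OLIG2 was number 36 and 7. Other genes thus followed OLIG1 more closely than OLIG2 did.

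**Figure D4:**
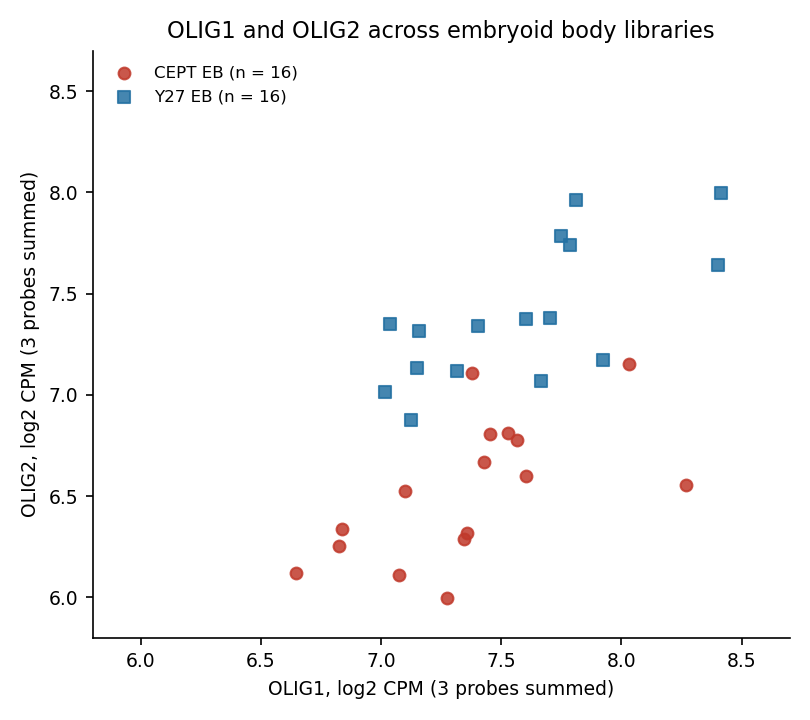
Summed log2 CPM of OLIG2 against OLIG1 in the 16 CEPT EB (circles) and 16 Y27 EB libraries (squares). Within both arms the points climb together (r 0.60 and 0.69), and at a given OLIG1 level the Y27 EB libraries mostly lie higher in OLIG2.

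The balance between the genes differed by group. Because different probes capture their targets with different yield, only differences of the ratio between groups can be read. The log2 ratio of OLIG2 to OLIG1 reads was -0.83 ± 0.35 in the CEPT arm (SD, n = 16) and -0.19 ± 0.32 in the Y27 arm, with ranges of -1.72 to -0.27 and -0.76 to 0.31, and -1.30 ± 0.28 in hESC (SD, n = 4). Directed cultures had far more OLIG2 than OLIG1 reads, 167 to 7 in ectoderm (ratio 23.9, exact 95% counting interval 11.3 to 60.3), 418 to 2 in mesoderm (209, 57.5 to 1731) and 66 to 0 in endoderm. These ratios contain the comparisons taken to have chosen the genes and carry no test.

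Genes with the most similar pattern were taken by a rule, without a p. Over the 6 group means of log2 CPM, OLIG1 was most like CDH9, a cadherin (r 0.97), SYP, the synaptic vesicle protein synaptophysin (0.96), SLC17A6, a vesicular glutamate transporter (0.95), RAN (0.93) and MAT2A (0.92). SYP was at 228 CPM ± 52.2 in Y27 EB and 180.0 ± 35.4 in CEPT EB (SD, n = 16 each), 13.9 ± 2.77 in hESC and under 1 CPM in the directed cultures (n = 4 each). OLIG2 was most like MRE11A (r 0.98) and ATM (0.95), both of the DNA double-strand break response, the nuclear receptor NR4A2 (0.96), WSB1 (0.93) and RBFOX3, the neuronal nuclear antigen NeuN (0.93). OLIG1 and OLIG2 had an r of 0.80 with each other over these 6 points, which makes OLIG2 number 32 of 426 for OLIG1. With 6 points and groups that share a medium or a line, many genes reach such values.

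Across the 32 EB libraries, after subtraction of each arm's mean, OLIG1 moved most closely with ELAVL3 (r 0.85) and TUBB3 (0.84), both markers of young neurons, then with CADM1 (0.77), CDH6 (0.77) and CDH2 (0.76). It ran most strongly opposite to GJA1 (-0.74), KLF5 (-0.73) and EPCAM (-0.72), the last a marker of epithelial and pluripotent cells. OLIG2 was closest to OLIG1 (0.65), followed by GAP43, a protein of growing axons (0.63), MCL1 (0.57), CDH2 (0.55) and SPON1 (0.52), and most opposite to ALDOC (-0.61), DDB2 (-0.52) and GAPDH (-0.51). The points share library depth and the scaling of each library.

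OLIG levels were set beside genes that work with them, from 4 lists of which 32 genes are on the panel. Of the ventral patterning list 5 of 19 were present. SHH, the inducing signal, averaged 0.15 CPM in CEPT EB and had 0 reads in every library of Y27 EB, hESC, ectoderm and mesoderm. It was at 6.99 ± 2.77 CPM in endoderm (SD, n = 4), where OLIG levels were lowest. SHH was thus at or near 0 both in the EB arms, where OLIG levels were high, and in ectoderm, where they were low. Its part in the OLIG levels was not tested. NKX2-2, the ventral neighbour of OLIG2, averaged 0.39 CPM in the CEPT arm, 0.16 in the Y27 arm, 8.99 in mesoderm and 16.7 in endoderm. PAX6, at 940.1 CPM in ectoderm, was at 19.0 ± 10.2 CPM in the CEPT arm (SD, n = 16) and 10.3 ± 9.58 in the Y27 arm. PAX3, a dorsal and neural crest factor, was called higher in both EB arms than in hESC, at least 1533-fold in CEPT EB and 1947-fold in Y27 EB by probe 541. It was also called higher in both arms than in ectoderm and mesoderm. PAX6 probe 543 was called higher than in hESC in CEPT EB (6.10 ± 0.85, adjusted p 9.06e-07, edgeR) and in Y27 EB (5.26 ± 1.45, adjusted p 0.00267). Of all probes 42.2% and 41.5% were called higher in these 2 comparisons. So the groups highest in OLIG1 and OLIG2 were not those highest in SHH, NKX2-2 or PAX6, while PAX3 and PAX6 were, like the OLIG genes, higher in EB than in hESC.

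Of the motor neuron and neurogenic list 7 of 21 genes were present. In CEPT EB against hESC 5 of the 6 tested were called higher and ID1 lower, and in Y27 EB against hESC 4 of 5 and ID1 again, where both OLIG genes were also higher. Of all probes 42.2% and 41.5% were called higher in these comparisons, and 73.4% and 74.1% either way. A list gene counts here if any of its probes was called, which is not a like measure. With probes summed, 80.0% and 78.2% of all genes were called either way. In ectoderm against hESC, where both OLIG genes were lower, 2 of the 4 list genes tested were called higher and none lower. There 81.7% of all probes were called either way. In mesoderm and in endoderm against hESC 1 of 4 was called higher (ISL1) and 1 lower (ID1). ISL1, a factor of motor and sensory neurons, rose from 0.27 CPM in hESC to 1754 ± 417 in the CEPT arm (SD, n = 16) and 2139 ± 400 in the Y27 arm, and NEUROD1 from 0.16 to 1881 ± 429 and 2442 ± 440. LHX3, which marks motor neurons with ISL1, stayed at 1.22 CPM and 0.50 CPM in these arms, and the OLIG2 partner NEUROG2 was at 24.6 and 23.3 CPM. In CEPT EB against Y27 EB, where OLIG2 was lower, ISL1 and NEUROD1 were the 2 list genes called of 5 tested, both lower (NEUROD1 probe 501, -0.48 ± 0.14, adjusted p 0.00783, edgeR). ISL1 was called by probe 395 (adjusted p 0.0331, edgeR) and not by probe 396 (0.0752). Of all probes 13% were called lower there and 23.6% either way, and of all genes with probes summed 29.3% either way. Both arms share their hESC libraries. Median log2 fold changes over the list's probes were 7.70 in CEPT EB and 7.95 in Y27 EB against hESC, or 6.06 and 6.54 with probes at 0 reads in hESC set at their limit, beside 0.47 and 0.39 over all probes.

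Of the oligodendrocyte and glial list 7 of 18 genes were present. SOX10, shared by oligodendrocytes and neural crest, was at 1176 ± 267 CPM in the CEPT arm (SD, n = 16) and 1549 ± 335 in the Y27 arm against 4.32 in hESC, and was called higher in both. PDGFRA, the receptor that marks oligodendrocyte precursors, was at 16.1 and 20.6 CPM in the arms and 53.3 in endoderm. MBP, a protein of myelin, was called lower in both arms than in hESC, where OLIG1 and OLIG2 were higher. In ectoderm and mesoderm it was also called lower than in hESC, as OLIG1 was. It stood at 8.09 and 7.19 CPM in EB, 309.8 ± 21.6 in hESC and 478.5 ± 4.10 in endoderm (SD, n = 4 each). GFAP and AQP4, astrocyte genes, had means under 1 CPM in both arms. Of the 5 list genes tested against hESC, 4 were called higher in each arm, S100B among them, and only MBP lower. Of all probes 42.2% and 41.5% were called higher in these comparisons. With probes summed, 80.0% and 78.2% of all genes were called either way. The list did not go with the OLIG genes in every group. Of its 4 genes tested in ectoderm and in endoderm against hESC, 3 were called higher and 1 lower in each, where both OLIG genes were lower. In mesoderm against hESC 1 was called higher and 3 lower. Calls either way made up 81.7%, 78.2% and 77.5% of all probes in ectoderm, endoderm and mesoderm. In CEPT EB against Y27 EB, S100B was called higher (probe 623, 0.90 ± 0.19, adjusted p 0.000619) and SOX10 lower (probe 685, -0.66 ± 0.10, adjusted p 6.73e-06, edgeR). There 4 list genes were tested, and 23.6% of all probes were called either way (13% lower). The list's probes had median log2 fold changes of 5.90 and 5.45 against hESC, or 4.33 and 4.67 with probes at 0 reads set at their limit, beside 0.47 and 0.39 over all probes.

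Of the neural progenitor list 14 of 20 genes were present. Against ectoderm, 11 genes of this list were called lower in CEPT EB (of 13 tested) and 11 in Y27 EB (of 14), and only VIM higher, while all 6 OLIG probes were higher in both arms. Calls either way made up 72.8% and 72.6% of all probes in these comparisons, and 78.0% and 76.8% of all genes with probes summed. ZIC1 and EMX2, a forebrain factor, were among the largest of these decreases, with log2 fold changes of -6.22 ± 0.34 (probe 808) and -5.91 ± 0.78 (probe 214) in CEPT EB. The list's median in CEPT EB against ectoderm was -3.04, against 0.18 for all probes. In ectoderm against hESC, where both OLIG genes were lower, 11 of 13 were called higher and GBX2 lower. There 81.7% of all probes were called either way, and 86.0% of all genes with probes summed.

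Of the 5 neural crest markers on the panel (SOX10, FOXD3, SNAI2, PAX3 and NGFR) 4 had a probe called lower in CEPT EB than in Y27 EB and none had one called higher, beside 13% of all probes called lower and 23.6% either way. These are genes with any of their probes called, so the shares of single probes are not a like measure. With probes summed, 29.3% of 382 genes were called either way. NGFR was not called, and FOXD3 was called by 1 of its 3 probes. None of the 5 was at 3 reads or fewer throughout an arm. Their summed level was 3443 to 5144 CPM in the CEPT arm, 3956 to 6778 in the Y27 arm and 102.8 to 637.7 in all other libraries. The neural ectoderm markers were at 2565 to 6146 CPM in the CEPT arm, 2470 to 5947 in the Y27 arm, and the pluripotency markers at 6582 to 8606 and 6432 to 7876. The part of these markers in the OLIG2 values was not tested.

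**Figure D5:**
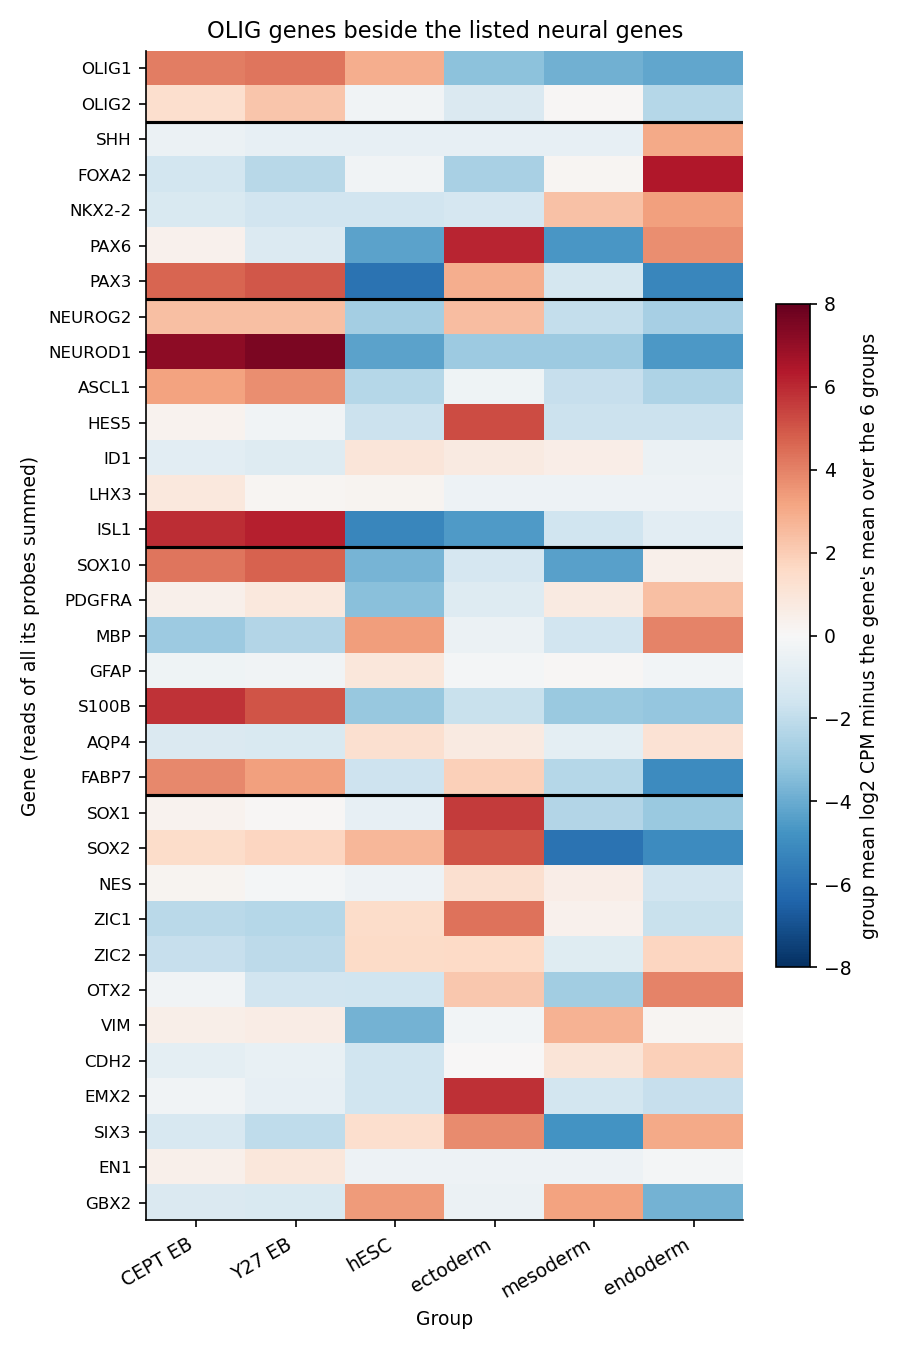
Group mean log2 CPM of OLIG1, OLIG2 and 31 of the 32 listed genes on the panel, each row centred on the gene's own mean over the 6 groups (red higher, blue lower); black lines separate the OLIG genes, the ventral patterning, motor neuron, glial and progenitor lists. OLIG1 and OLIG2 are highest in the EB columns, as are ISL1, NEUROD1 and SOX10, whereas PAX6, EMX2 and ZIC1 are highest in ectoderm.

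Panel neighbours on chromosome 21 were read as well. S100B, the glial calcium-binding protein, was the only one of them called between the EB arms, and it was higher in CEPT EB where OLIG2 was lower. C21orf33 and PWP2 were not called there, with log2 fold changes between -0.14 and 0.05. In ectoderm against hESC both were called lower, as the OLIG genes were (C21orf33 -1.24 ± 0.13 and -1.22 ± 0.09 by its 2 probes, PWP2 -0.78 ± 0.23 and -0.96 ± 0.16). In mesoderm against hESC PWP2 was higher by both probes (0.77 ± 0.21 and 0.47 ± 0.16), where OLIG1 was lower and OLIG2 was not called.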

How the data were processed

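RASL-Seq libraries of 48 samples were analysed, grouped by their labels. Per the series' design text, the authors made the deposited counts of reads per probe pair with a custom aligner, whose version is not given in the sources used here; the values are raw counts, not normalized. The submitters' processing notes also name hg38 and DESeq2. The deposited merged table repeats the counts, and 16 of its columns that match no sample were not used.

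Counts were tested in R 4.3.3 with edgeR 4.0.16 (filterByExpr, TMM, robust quasi-likelihood test, two-sided, Benjamini-Hochberg, threshold 0.05). The control groups shared a fit of 16 libraries, the arms one of 32, and each EB arm against another group its own. CPM use factors over all 48 libraries, fold changes those of their fit, log2 CPM a prior count of 2. Limits for 0 reads are 3 reads over a group. Correlations had 100000 permutations, two-sided. Totals per group ranged from 1773969 to 2801704 reads in hESC, 2283016 to 3334662 in ectoderm, 2358531 to 3482191 in mesoderm, 2982467 to 4227384 in endoderm, 1814266 to 4794912 in CEPT EB and 379810 to 5577868 in Y27 EB. The filter kept all 6 OLIG probes in every fit.

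The test was tested on simulated counts. It recovered 84% of 200 changed probes of 867 in the EB design (4% of calls false), 91.5% of 903 in ectoderm against hESC and 61.5% of 940 in CEPT EB against hESC (49.0% of 2-fold changes). Only 200 probes were changed each time, up or down at random. In the real comparisons other than CEPT against Y27 EB, 70.7% to 81.7% of probes were called, so these rates may not hold there.

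The members and lists were chosen with earlier results of these data known. All OLIG probes are named. The most similar genes were the 5 with the highest r over group means and the 5 highest and 3 lowest over EB libraries. From the lists, called members with the 3 largest changes each way could be named; other listed genes were named after their values were seen. The values of 1 listed gene are not reported here. Alternatives were other scalings, filters, DESeq2 1.42.0, summed probes, all libraries in 1 fit, a replicate block and libraries left out. Gene positions came from RefSeq (GRCh38.p14) and transcripts from GENCODE. Figures used Python 3.11.15 and matplotlib 3.10.9.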

Additional observations from a re-analysis of the deposited data

Results flagged for a closer look

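In 3 of 29 combinations of group and measure, 1 library lay far from the other 3 by Dixon's rule. The rule's rate of about 1 in 20 assumes continuous values and does not apply to these 3. OLIG1 probe 532 was at 0.965 CPM in ectoderm replicate 4 (3 reads) and at 0 in the other ectoderm libraries. OLIG1 probe 533 was at 0.680 CPM in mesoderm replicate 2 (2 reads) and at 0 in the other mesoderm libraries, and these are all OLIG1 reads of mesoderm, so the summed OLIG1 level, also 0.680 CPM, stands apart in the same way. All 3 rest on 2 or 3 reads, and with the other libraries at 0 any read in 1 library is flagged.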

How the results depend on the processing

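Of the alternative log2 fold changes of OLIG probes, 696 of those with all libraries and 1183 of those with a library left out were unchanged. Unchanged means the same direction and the same side of the threshold. In the 2 comparisons without a test it means the same direction and a move below the larger SD of the 2 groups, and 9 values moved more. With all libraries 14 gained a call and 5 lost it. With a library left out 6 gained a call, 8 lost it and 3 turned direction. The exceptions that turned direction were OLIG2 in mesoderm against hESC: probe 534 without hESC replicate 1 (-0.035; leave-one-out up to 0.54), and probe 536 without hESC replicate 4 (-0.076; up to 0.30) or mesoderm replicate 2 (-0.01). Library totals alone called OLIG2 probe 535 there (0.56, adjusted p 0.0424, edgeR). In ectoderm against hESC the OLIG2 calls were lost for probe 534 with median-ratio factors (adjusted p 0.0593), no filter (0.0789) and DESeq2 (0.0962), and for probe 535 with no filter (0.0536) and DESeq2 (0.0636). In ectoderm against endoderm 4 OLIG probes were called with upper-quartile factors and 4 with library totals, instead of 2. A filter of 10 reads in every library left and called 3 OLIG probes in Y27 EB against hESC, 2 in each EB arm against ectoderm and 3 in each against mesoderm, since fewer probes were tested. OLIG1 probe 533 passed in ectoderm against mesoderm without mesoderm replicate 2 (3.15, adjusted p 0.0475, edgeR).

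Between the EB arms 39.1% of all probes were called with library totals (339 instead of 205) and 112 of 382 genes with probes summed. In the other comparisons the strict filter left 395 to 433 calls and summed probes 303 to 339, against 681 to 738, with fewer features tested. Library totals moved the median of all probes by -0.31 (between the EB arms) to 0.72 (Y27 EB against ectoderm) on the log2 scale. They moved the share of higher calls in mesoderm against hESC from 43.9% to 54.9%, in ectoderm and mesoderm against endoderm from 50% to 60.3% and 48.8% to 64.4%, and in Y27 EB against ectoderm and mesoderm from 44.9% to 62.7% and 49.9% to 64.6%. The correlation of OLIG1 with OLIG2 was 0.49 in both arms with the top probe of each gene, and 0.50 to 0.72 in CEPT EB and 0.60 to 0.76 in Y27 EB with 1 library left out; the top-probe log2 ratios were -1.69, -1.02 and -2.10 in CEPT EB, Y27 EB and hESC. In no pair of groups did every same-numbered pair of samples correlate above 0.1, so replicate numbers were not taken to pair them. CEPT and Y27 EB correlated at a median of -0.00873, with 1 of 16 closest to its own number. Among the directed cultures, ectoderm correlated with endoderm at a median of 0.161 (0.0689 to 0.454, 4 of 4 closest to their own number) and with mesoderm at 0.195 (0.0507 to 0.584). A replicate block called 19.3% of all probes between the arms and left every count of OLIG calls as it was. Precision is limited by depth for OLIG1 in the directed cultures (0 to 7 reads a group).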
